A study of Mus musculus with 13 samples.

Results

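The genes described here are 10 cathepsins of the lysosome, Ctsa, Ctsb, Ctsc, Ctsd, Ctsf, Ctsh, Ctsl, Ctso, Ctss and Ctsz. They were taken by gene symbol from 55291 symbols counted in each library. The libraries came from the CA1 region of organotypic cultures of entorhinal cortex and hippocampus, made from wildtype C57BL/6 mouse pups and matured in vitro for 18 days or more. The groups were 5 non-lesioned control libraries, 4 libraries from cultures in which the Schaffer collaterals had been cut (SCL) and 4 from cultures in which the entorhinal cortex had been cut away from the hippocampus (ECL), and lesioned cultures were taken 3 days after the cut. SCL removed the input that CA1 pyramidal cells receive from CA3, and ECL removed the input from the entorhinal cortex. Each library was made from the CA1 region of 1 culture, and nothing states that the cultures of a group came from separate animals, so p-values measure the spread between these cultures.

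Cathepsins are proteases that are made as inactive precursors, carried to the lysosome mostly by mannose 6-phosphate receptors, and activated by the acid pH there. Most belong to the papain family of cysteine proteases, while cathepsin D is an aspartic and cathepsin A a serine protease. In the brain, neurons depend on cathepsin D and cathepsin B for the turnover of proteins taken up by autophagy, and microglia are rich in cathepsins, with cathepsin S largely confined to them.

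Total counts ran from 14371152 to 21092612 in the control libraries, from 16405517 to 56786613 in the SCL libraries and from 20210165 to 46449937 in the ECL libraries. Every cathepsin had at least 402 reads in every library. The part of counting error in the spread between cultures was not tested. Values are given in CPM, the count of a gene divided by the library total scaled with trimmed-mean factors. The written library protocol speaks of the dentate gyrus, while the sample names and tissue fields give CA1. Summed over 12 pyramidal cell markers, the control libraries held 3343 to 3791 CPM, against 96.2 to 143 CPM over 8 markers of dentate granule cells and CA3. The largest parts of the first sum were Snap25 (mean 1679 CPM) and Syt1 (797 CPM), which other neurons also express. Wfs1 (10.1 CPM) and Fibcd1 (82.4 CPM) were of the same order as Prox1 (16.3 CPM) and Nectin3 (61.6 CPM). Of the other dentate and CA3 markers, C1ql2, Dsp, Lct and Iyd had control means of 0.413, 0.729, 0.198 and 0.369 CPM. Cpne4 had 38.2 and Grik4 6.45 CPM. Of the other pyramidal cell markers, Mpped1 had 121 and Pou3f1 46.9 CPM. The sums alone therefore cannot settle the region, and the study's methods describe isolating CA1 from single cultures. A gene was called when the adjusted p of the edgeR quasi-likelihood fit over all tested genes was under 0.05.

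After SCL, 8 of the 10 cathepsins rose and none fell, where 13.1% of all 11438 genes tested rose and 11.8% fell. Without SCL replicate 3 the counts were 7 cathepsins and 8.2% of all genes. After ECL, 8 of 10 rose and none fell, where 15.2% of 11212 genes tested rose and 12.5% fell. The median log2 fold change over the 10 cathepsins was 0.86 after SCL and 0.70 after ECL, beside 0.01 and -0.01 over all genes tested. Ctsf and Ctsl passed the test in neither comparison. The lesioned libraries lay wholly above the controls for 7 cathepsins after SCL, as they did for 12.2% of all genes, and for 5 after ECL, against 13.2% of all genes. Both comparisons used the same 5 control libraries and are not independent of each other.

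**Figure D1:**
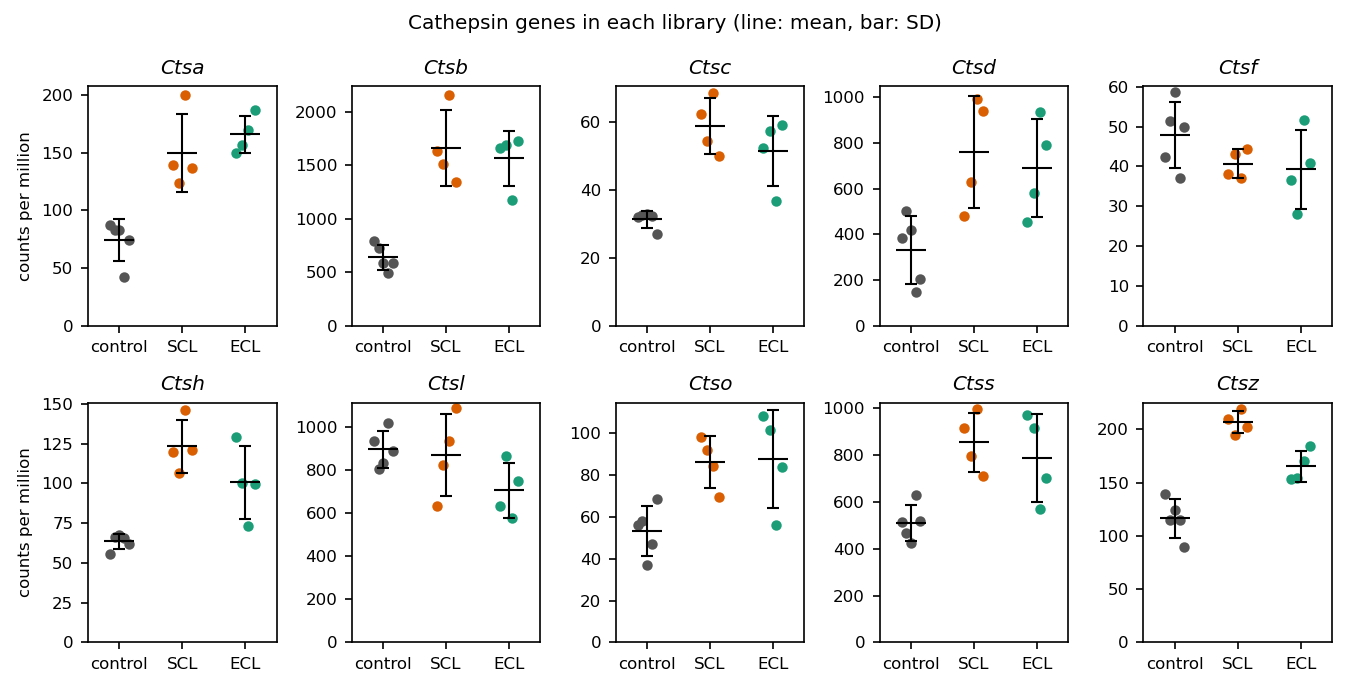
Level of each of the 10 cathepsin genes in CPM, by group, with 1 point per library, the mean as a line and the SD as a bar; each panel has its own axis starting at 0. Points of both lesions lie above all controls for Ctsa, Ctsb, Ctsc, Ctsh and Ctsz, while Ctsf and Ctsl overlap between groups.

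Cathepsin B, a cysteine protease that cuts both within proteins and at their carboxyl end, had the largest rise. Ctsb (chr14:63122462-63145923, plus strand) was at 792, 732, 592, 492 and 588 CPM in the controls, at 1637, 1512, 2158 and 1342 CPM after SCL, and at 1665, 1694, 1177 and 1725 CPM after ECL. All 8 lesioned libraries were above every control, and the ECL library at 1177 CPM stood below the other 3. Its log2 fold change was 1.38 ± 0.19 (SE) after SCL (adjusted p = 0.001264) and 1.30 ± 0.18 after ECL (adjusted p = 0.0002802). Ctsb shares 12.8% of its exon bases with Fdft1 on the other strand, which stayed between group means of 49.1 and 59.7 CPM.

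Cathepsin S, an endopeptidase that trims the invariant chain in antigen-presenting cells, was already abundant in control tissue. Ctss (chr3:95526786-95556403, plus strand) stood at 515, 465, 422, 627 and 519 CPM in controls, at 913, 796, 995 and 711 CPM after SCL, and at 969, 914, 567 and 700 CPM after ECL. Every SCL library exceeded the controls, and 1 ECL library lay within them. Ctss rose by 0.75 ± 0.15 on the log2 scale after SCL (adjusted p = 0.005518) and by 0.64 ± 0.18 after ECL (adjusted p = 0.01644). The call after ECL was lost without ECL replicate 2 (adjusted p = 0.0546), and when counts were corrected for gene length and GC content (log2 fold change 0.23, adjusted p = 0.1711).

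Cathepsin L, a broad endopeptidase, did not follow Ctsb and Ctss. Ctsl (chr13:64359337-64370890, minus strand) was at 935, 805, 830, 1019 and 889 CPM in controls, at 634, 822, 933 and 1087 CPM after SCL, and at 633, 864, 576 and 747 CPM after ECL. The SCL libraries spread on both sides of the controls, and 3 of the 4 ECL libraries were below the lowest control. The log2 fold change was -0.04 (95% interval -0.39 to 0.31) after SCL and -0.34 (-0.66 to -0.01) after ECL, with adjusted p = 0.8701 and 0.1141. Of its exon bases, 32.9% lie in annotated antisense or pseudogene models, which had 0 CPM in every group. These counts of 0 do not show whether reads from the shared bases were left out.

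Cathepsin F, an endopeptidase with a long propeptide, was low and also not called. Ctsf (chr19:4855130-4860918, plus strand) read 42.3, 51.5, 58.7, 37.1 and 50.0 CPM in controls, 38.1, 43.2, 37.0 and 44.5 CPM after SCL, and 36.5, 28.0, 51.6 and 41.0 CPM after ECL. The groups overlapped in both comparisons. Its log2 fold change was -0.24 (-0.59 to 0.11) after SCL and -0.28 (-0.69 to 0.13) after ECL, with adjusted p = 0.2934 and 0.294. With the length and GC correction Ctsf was called lower after ECL (-0.38, adjusted p = 0.04007).

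Cathepsin O, a widely expressed cysteine cathepsin whose substrates are little known, rose after both lesions. Ctso (chr3:81932601-81956725, plus strand) was at 56.2, 57.9, 36.9, 47.2 and 68.8 CPM in controls, at 98.3, 92.0, 84.3 and 69.5 CPM after SCL, and at 108.5, 101.8, 56.0 and 84.0 CPM after ECL. The lowest SCL library stood just above the highest control, and 1 ECL library fell among the controls. Ctso changed by 0.69 ± 0.18 on the log2 scale (adjusted p = 0.0139) after SCL and 0.72 ± 0.21 (adjusted p = 0.02046) after ECL. Without ECL replicate 1 or 2 the ECL call was lost, at adjusted p = 0.06231 and 0.06598.

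The cysteine cathepsins that cut from the ends of proteins all rose. Cathepsin C, the dipeptidyl peptidase that activates serine proteases of immune cells, had the smallest relative spread among controls after Ctsh. Ctsc (chr7:88278085-88310888, plus strand) was at 32.0, 32.5, 33.0, 32.3 and 27.0 CPM in controls, at 62.3, 54.4, 68.5 and 49.9 CPM after SCL, and at 52.3, 57.4, 36.6 and 59.1 CPM after ECL. All lesioned libraries were above all controls, with ECL replicate 3 closest to them. On the log2 scale Ctsc rose by 0.91 ± 0.14 (adjusted p = 0.001988) after SCL and 0.72 ± 0.16 (adjusted p = 0.005759) after ECL.

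Cathepsin H, mainly an aminopeptidase, showed the same separation. Ctsh (chr9:90054152-90076089, plus strand) was at 55.9, 66.4, 67.6, 66.0 and 61.7 CPM in controls, at 119.6, 106.6, 146.4 and 120.9 CPM after SCL, and at 129.3, 100.5, 73.0 and 99.7 CPM after ECL. No lesioned library reached down to the controls, and again ECL replicate 3 came nearest. The log2 fold change was 0.96 ± 0.13 (adjusted p = 0.001264) after SCL and 0.67 ± 0.16 (adjusted p = 0.007743) after ECL.

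Cathepsin Z, also named cathepsin X, is a carboxypeptidase that removes single residues. Ctsz (chr2:174427493-174439039, minus strand) was at 139, 115, 124, 115 and 89.2 CPM in controls, at 210, 195, 219 and 202 CPM after SCL, and at 153, 154, 170 and 184 CPM after ECL. The 3 groups formed separate ranges, with controls lowest and SCL highest. Ctsz had log2 fold changes of 0.82 ± 0.14 (adjusted p = 0.002429) after SCL and of 0.51 ± 0.14 (adjusted p = 0.01739) after ECL. Both calls were lost with the length and GC correction, at 0.39 (adjusted p = 0.06637) after SCL and at -0.01 (adjusted p = 0.9572) after ECL, and the ECL call also without ECL replicate 4 (adjusted p = 0.06359).

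Cathepsin D, the main aspartic protease of lysosomes, varied more between control cultures than any other member. Ctsd (chr7:142375911-142388038, minus strand) was at 386, 502, 419, 147 and 207 CPM in controls, at 480, 630, 991 and 940 CPM after SCL, and at 455, 580, 937 and 791 CPM after ECL. In both lesion groups 3 libraries were above every control and 1 lay within the control range. The log2 fold change was 1.19 ± 0.33 (adjusted p = 0.02124) after SCL and 1.06 ± 0.31 (adjusted p = 0.022) after ECL. The SCL call was lost without control replicate 5 (adjusted p = 0.05327) or SCL replicate 3 (0.06554), and the ECL call without control replicate 5 (0.05909), ECL replicate 3 (0.06466) or ECL replicate 4 (0.0577). Ctsd shares 34.4% of its exon bases with the gene model Gm49369 on its own strand, which had 0 CPM in all groups. That count of 0 does not show how reads from the shared bases were assigned.

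Cathepsin A, a serine carboxypeptidase that also protects neuraminidase and beta-galactosidase in the lysosome, rose clearly after both lesions. Ctsa (chr2:164832873-164841032, plus strand) was at 87.5, 82.7, 83.0, 42.8 and 74.5 CPM in controls, at 139, 124, 200 and 137 CPM after SCL, and at 150, 157, 170 and 187 CPM after ECL. All lesioned libraries were above all controls, and control replicate 4 was the lowest library of Ctsa and of Ctsd alike. Ctsa rose by 1.01 ± 0.21 on the log2 scale (adjusted p = 0.005779) after SCL and 1.17 ± 0.19 (adjusted p = 0.0007607) after ECL. The gene shares 17.4% of its exon bases with Neurl2 and Pltp on the other strand, and the group means in control, SCL and ECL were 2.31, 8.72 and 12.3 CPM for Pltp and 5.75, 4.1 and 4.1 CPM for Neurl2. The counting did not use strand, so reads from the shared bases cannot be told apart.

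**Figure D2:**
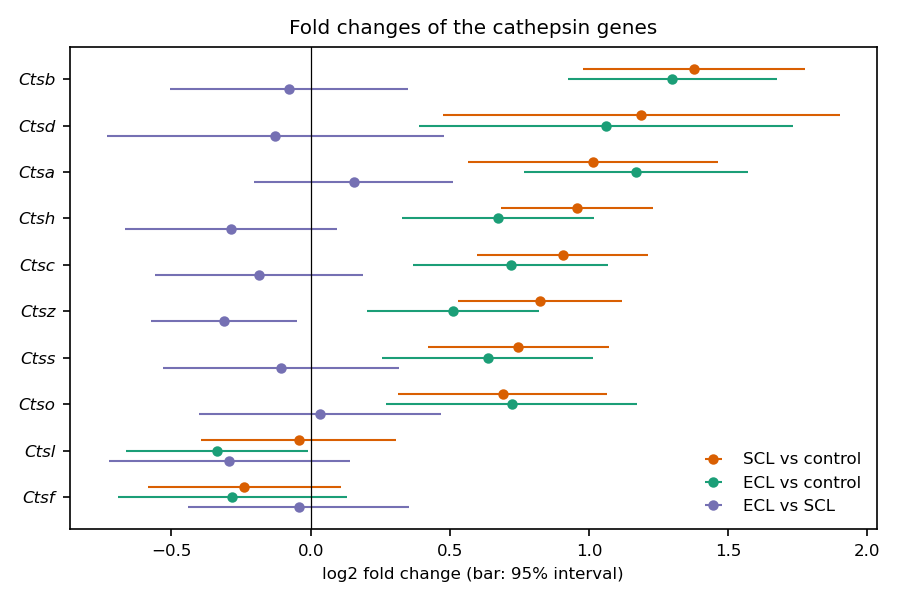
Log2 fold change of each cathepsin gene with its 95% interval for SCL against control, ECL against control and ECL against SCL. The intervals against control exclude 0 for the 8 called genes. That of Ctsl after ECL, which was not called, also excludes 0, on the lower side (-0.66 to -0.01). Every interval of ECL against SCL includes 0 except that of Ctsz.

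Compared directly, ECL and SCL differed for none of the 10 cathepsins, and for 0% of 12232 genes tested in edgeR. At an unadjusted p under 0.05 the count was 1 of 10 cathepsins and 897 of all genes (7.33%), and DESeq2 called 62 genes, with no cathepsin among them. The 1 cathepsin was Ctsz, whose ECL libraries were all below the SCL libraries, as happened for 2.01% of genes. Its log2 difference, ECL minus SCL, was -0.31 with a 95% interval of -0.57 to -0.05 (adjusted p = 0.6294). For Ctsb the difference was -0.08 (-0.51 to 0.35), and for Ctsa it was 0.16 (-0.20 to 0.51). For Ctsd the interval ran from -0.73 to 0.48, so differences within that range were not excluded by these libraries.

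Levels of different genes were compared in TPM, which corrects counts for exon length before scaling each library to the same total. In control tissue Ctss was highest, at 939 ± 98.0 TPM (SD, n = 5), above every library of every other cathepsin. Ctsd followed at 360 ± 170 TPM, Ctsl at 346 ± 20.8 TPM, Ctsb at 267 ± 58.0 TPM and Ctsz at 204 ± 34.7 TPM. Neighbours among those 4 did not differ beyond their spread, since the range of Ctsd covered the ranges of the other 3 and Ctsl overlapped Ctsb. The other 5 were below 50 TPM, from Ctsa at 39.9 ± 10.96 TPM, through Ctsh, Ctso and Ctsf, down to Ctsc at 13.6 ± 1.22 TPM. The order of the low members depended on the length used, since with the longest transcript Ctsf was at 47.3 TPM, above Ctso at 31.7 TPM. After the lesions Ctss was still highest, at 1536 ± 149 TPM (n = 4) in SCL and 1397 ± 279 TPM (n = 4) in ECL. Ctsl stood at 330 ± 80.8 TPM and 263 ± 37.4 TPM. Its range overlapped that of Ctsz, at 351 ± 7.34 TPM and 279 ± 36.5 TPM. It lay below Ctsb, at 670 ± 110 TPM and 626 ± 90.6 TPM.

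**Figure D3:**
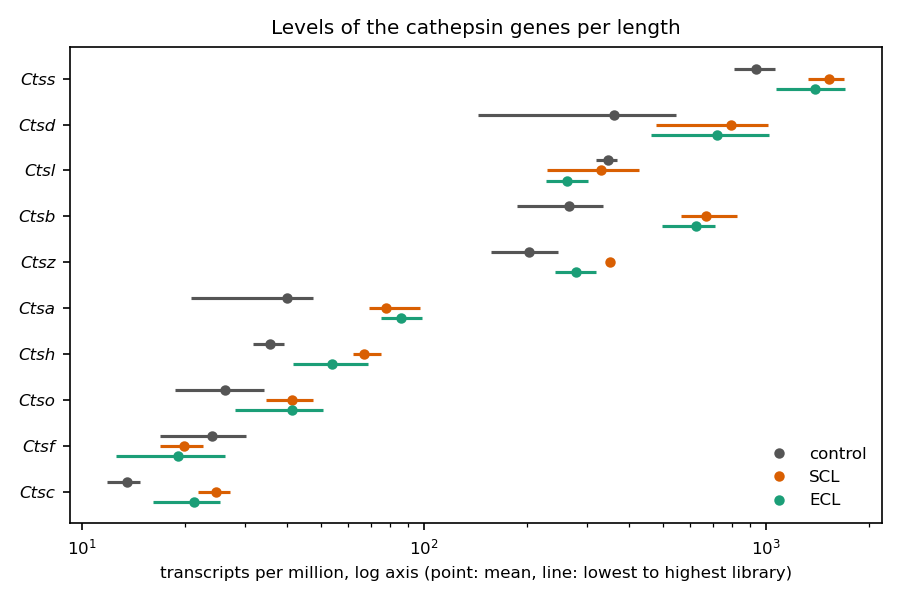
Level of each cathepsin gene in TPM on a log axis, with the group mean as a point and the lowest to highest library as a line. Ctss is highest in all 3 groups, and Ctsb stands above Ctsl in both lesion groups but not in the controls.

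Together the 10 genes took 0.267% ± 0.0318 (SD, n = 5) of all counts in controls, 0.475% ± 0.0765 (n = 4) after SCL and 0.431% ± 0.0341 (n = 4) after ECL. The highest control, at 0.299%, was below the lowest lesioned library, at 0.394%. Within that sum Ctsl was the largest member in controls, with 32.6% ± 4.25 of the cathepsin counts, and Ctsb was next with 23.0% ± 2.87. After SCL the order was turned, with 34.5% ± 4.197 for Ctsb and 18.1% ± 3.74 for Ctsl, and after ECL the shares were 35.7% ± 3.32 and 16.1% ± 1.78. The share of Ctss stayed near its control value of 18.6% ± 3.45, at 17.9% ± 2.49 after SCL and 18.0% ± 3.60 after ECL. These shares are of counts and depend on gene length.

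Most microglia markers rose after both lesions, as did 8 of the 10 cathepsins. Summed over 20 markers, the controls held 871 to 1024 CPM, the SCL libraries 1686 to 3374 CPM and the ECL libraries 1757 to 2492 CPM. Of 19 markers tested, 17 rose after SCL and 12 after ECL, and none fell, where 13.1% and 15.2% of all genes rose. Aif1, an actin-binding protein of microglia, rose by 1.18 and 0.91 on the log2 scale, and Tyrobp, the adaptor of Trem2, by 2.495 and 2.588. SCL replicate 3 stood far above the other SCL libraries for Tyrobp, at 387 CPM against 66.5 to 79.1 CPM, and without it the rise after SCL was 1.47 ± 0.26 (adjusted p = 0.008043). Csf1r, the receptor microglia need to survive, rose by 0.74 after SCL and was not called after ECL, with 0.39 (adjusted p = 0.1139). Of the markers of border macrophages and monocytes, Cd163, Ccr2, Ly6c2 and Plac8 were under 1 CPM in every lesioned library. Some members too low to test had lower means after the lesions. In control, SCL and ECL, Mrc1 was at 3.73, 2.51 and 2.33 CPM and Lyve1 at 1.08, 0.58 and 0.23 CPM. Cd163 was at 0.95, 0.34 and 0.28 CPM, and Ccr2 at 1.86, 0.42 and 0.28 CPM. Of the 3 tested, F13a1 rose after SCL (1.23) and ECL (0.86) and Pf4 after SCL (1.34), while Pf4 after ECL (0.83) and Ms4a7 (0.58 and 0.38) were not called. That list summed to 32.3 to 79.9 CPM in controls, 72.3 to 119.9 CPM after SCL and 58.7 to 98.2 CPM after ECL, and its part in the cathepsin values was not tested. Of 12 astrocyte markers, 6 rose after SCL, and 5 rose and 1 fell after ECL, and their sum ran from 8671 to 14220 CPM in controls, 10590 to 14320 CPM after SCL and 9630 to 12630 CPM after ECL. In these bulk libraries more cells of a type and more RNA per cell cannot be told apart.

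Each cathepsin was therefore also expressed as a log2 ratio to the mean of 18 of the microglia markers. The mean log2 CPM of these markers was 5.23 ± 0.11 in controls, 6.32 ± 0.30 after SCL and 6.13 ± 0.22 after ECL. Because the markers rose, the ratio fell for most of the transcriptome, with a median change of -1.06 after SCL and -0.90 after ECL. The exact permutation test over libraries, adjusted over all genes as a choice made after seeing the data, called 79.5% of 11404 genes lower in ratio after SCL and 68.1% of 11207 after ECL, and 0.316% and 1.21% higher. Among the cathepsins, Ctsf and Ctsl were lower in ratio after both lesions. Ctsf changed by -1.30 after SCL and -1.20 after ECL, and Ctsl by -1.15 and -1.25, each at an exact permutation p = 0.007937, the smallest this design allows (adjusted p = 0.01292 after SCL and 0.01534 after ECL).

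For Ctsb and Ctsz the call depended on the adjustment. The ratio change of Ctsb was 0.29 after SCL (exact p = 0.01587) and 0.40 after ECL (exact p = 0.02381), and that of Ctsz was -0.38 after ECL (exact p = 0.03175). Adjusted over all genes, most of which were lower because the markers rose, these 3 passed (adjusted p = 0.02246, 0.03588 and 0.04582), and adjusted over the 10 ratios, as planned, none of the 3 did. The remaining changes, which were not called, ran from -0.38 for Ctso to 0.19 for Ctsd after SCL, and from -0.29 for Ctss to 0.30 for Ctsa after ECL. Against 6 complement and Fc markers, which rose more than the rest, the ratio change of Ctsb was -0.23 after SCL and -0.47 after ECL, so its direction depended on the marker set. How far the rise of microglia markers accounts for the rise of any cathepsin was not tested.

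**Figure D4:**
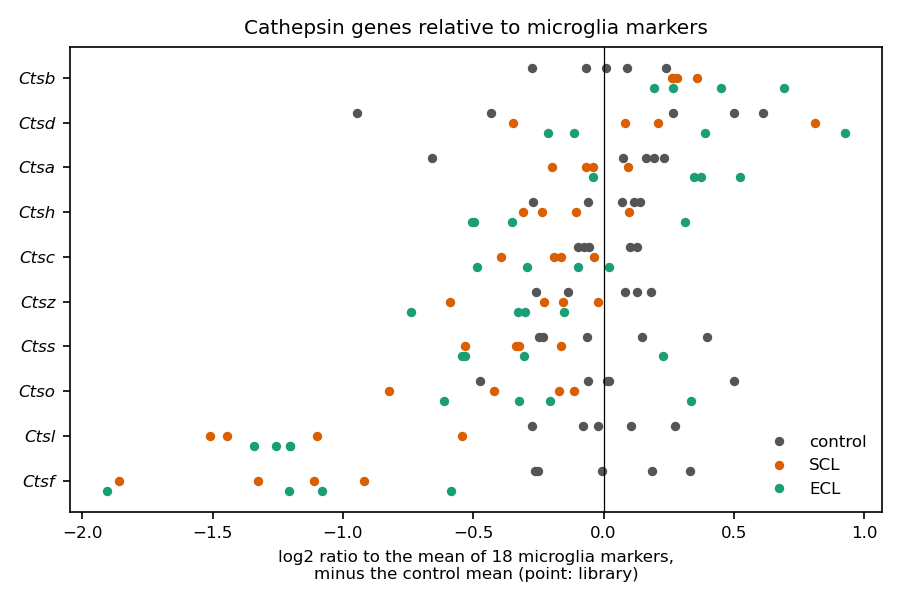
Log2 ratio of each cathepsin gene to the mean of 18 microglia markers in each library, with the control mean of the gene set to 0 and 1 point per library. Ctsf and Ctsl lie to the left after both lesions, with no lesioned library inside the control range, while all lesioned libraries lie right of 0 for Ctsb.

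Between cultures of the same group some members moved together and others in opposite directions, with 28 of 45 pairs positive and 17 negative. As a description over 13 libraries with group means removed, Ctsa and Ctsd had a Pearson r of 0.77, Ctsb and Ctsc 0.72, and Ctso and Ctss 0.68, whereas Ctsf and Ctss had -0.88 and Ctsd and Ctss -0.67. Libraries also differed in how counts depended on the GC content of genes. The trend was -0.42 log2 units per 10% GC in control replicate 4 and 0.33 in ECL replicate 3, and between -0.18 and 0.14 in all other libraries. A like trend with gene length set the groups apart, at 0.049 to 0.167 log2 units per doubling of length in controls, -0.108 to -0.022 after SCL and -0.092 to -0.034 after ECL, so longer genes had relatively lower counts in every lesioned library. Ctss and Ctsz, with 1358 and 1441 exon bases the shortest members, were the members that lost calls with the length and GC correction. The GC trend correlated within groups with Ctsd at 0.86, Ctsf at 0.85 and Ctss at -0.82, and with Ctsb at 0.02. Exon GC content was 56.0% in Ctsd, 56.6% in Ctsf, 46.0% in Ctss and 49.2% in Ctsb. These points share libraries and base composition, and the part of both trends in the fold changes was not tested beyond the corrected fit. Without both of those libraries, a choice made after seeing the data, Ctsd after ECL was at 0.69 and no longer called (adjusted p = 0.0607). The other 7 cathepsins stayed called higher, and Ctsf was called lower at -0.52 (adjusted p = 0.04089). The share of all genes called in that setting is not given here.

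The promoters of the cathepsins held different motifs, and are shown for the 6 members with a match. RefSeq windows of 250 bases before to 50 after the annotated start (GRCm38.p6) were held for 8 of the 10 members, with no entry for Ctsb and Ctsh. CACGTG, the E-box core of the element that binds TFEB and its relatives, was in 4 of 8 members, Ctsa, Ctsd, Ctsf and Ctsl, against 8.09% of 27025 genes. The longer palindrome, with GT before and AC after these letters, was in 0 of 8, against 0.37% of genes. GAGGAAGT, of the type bound by PU.1, the myeloid factor of microglia, was in Ctsc and Ctss, against 3.69% of genes. Both strands were searched, every longer match would also count as a shorter one, and capitals mark the matches, with positions counted from the start base as 0. Ctsa has 2 windows, and that of the start furthest upstream has no match and is not shown. Of the E-box holders, Ctsa (-12 and 5) and Ctsd (-245 and -98) rose after both lesions and Ctsf (-79) and Ctsl (-236) were not called.
Ctsa, chr2:164833523-164833822, plus strand: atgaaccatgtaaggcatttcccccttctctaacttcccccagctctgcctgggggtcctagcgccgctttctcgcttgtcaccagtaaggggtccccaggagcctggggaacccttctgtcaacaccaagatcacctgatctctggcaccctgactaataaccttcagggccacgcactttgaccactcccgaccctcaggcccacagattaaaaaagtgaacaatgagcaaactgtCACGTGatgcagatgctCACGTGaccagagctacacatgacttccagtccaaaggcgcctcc
Ctsd, chr7:142387778-142388077, minus strand: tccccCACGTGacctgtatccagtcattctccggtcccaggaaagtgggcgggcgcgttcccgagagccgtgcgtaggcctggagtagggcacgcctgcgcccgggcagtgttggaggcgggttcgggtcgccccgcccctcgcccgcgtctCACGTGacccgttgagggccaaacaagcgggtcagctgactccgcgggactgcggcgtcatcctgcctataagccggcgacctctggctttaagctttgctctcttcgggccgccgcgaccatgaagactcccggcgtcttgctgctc
Ctsf, chr19:4854915-4855214, plus strand: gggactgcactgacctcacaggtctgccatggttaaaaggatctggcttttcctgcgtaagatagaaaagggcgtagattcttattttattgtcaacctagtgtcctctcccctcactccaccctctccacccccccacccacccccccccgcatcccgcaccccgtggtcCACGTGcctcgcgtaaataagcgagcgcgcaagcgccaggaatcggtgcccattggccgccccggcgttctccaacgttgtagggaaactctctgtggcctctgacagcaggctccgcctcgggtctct
Ctsl, chr13:64370471-64370770, minus strand: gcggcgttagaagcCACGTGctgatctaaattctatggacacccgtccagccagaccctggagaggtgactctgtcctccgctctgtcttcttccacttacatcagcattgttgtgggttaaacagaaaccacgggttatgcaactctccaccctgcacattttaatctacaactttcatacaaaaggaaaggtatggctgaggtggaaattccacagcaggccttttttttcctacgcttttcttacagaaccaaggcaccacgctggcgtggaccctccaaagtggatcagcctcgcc
Ctsc, chr7:88277835-88278134, plus strand: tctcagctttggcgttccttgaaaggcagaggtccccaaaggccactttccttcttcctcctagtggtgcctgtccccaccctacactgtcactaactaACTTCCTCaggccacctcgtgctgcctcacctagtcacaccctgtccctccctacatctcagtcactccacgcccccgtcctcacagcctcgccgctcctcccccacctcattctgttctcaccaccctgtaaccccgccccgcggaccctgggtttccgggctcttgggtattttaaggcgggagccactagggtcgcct
Ctss, chr3:95526536-95526835, plus strand: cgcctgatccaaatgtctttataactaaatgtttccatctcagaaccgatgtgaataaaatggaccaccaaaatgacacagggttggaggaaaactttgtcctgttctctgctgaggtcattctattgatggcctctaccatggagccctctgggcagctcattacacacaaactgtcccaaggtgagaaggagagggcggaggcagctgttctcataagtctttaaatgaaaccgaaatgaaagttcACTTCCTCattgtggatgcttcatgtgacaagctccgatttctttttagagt
The last 2 sequences carry the PU.1 type motif, as its reverse complement, at -151 in Ctsc and -2 in Ctss, and both genes rose after both lesions. A match describes the letters only. Of the TFEB family itself, Tfeb was low, at 2.08 ± 1.04 CPM in controls, 1.89 ± 0.56 after SCL and 1.52 ± 0.46 after ECL, and was not tested. Tfe3 (SCL -0.017, ECL -0.002 on the log2 scale) and Mitf (-0.26 and -0.41) were not called.

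The partners of the cathepsins in the lysosome were followed in lists chosen with earlier results known. Of 7 tested cathepsin and protease inhibitors, 5 rose after each lesion and none fell, and their median log2 fold changes were 0.58 and 0.91. That was 71.4% higher after each lesion, beside 13.1% (SCL) and 15.2% (ECL) of all genes. Cst3, the secreted cystatin C, went from 4977 ± 687 CPM in controls to 7233 ± 542 CPM in SCL tissue (adjusted p = 0.03188) and 9147 ± 846 CPM in ECL tissue (adjusted p = 0.001812). Cstb, which inhibits cathepsins in the cytosol, went from 114 to 212 and 219 CPM, and Cst7, cystatin F of immune cells, from 13.2 to 32.4 and 29.7 CPM, all called. Serpina3n, a serpin of reactive astrocytes, rose by 1.15 and 1.45. Serping1, the inhibitor of complement C1, rose by 0.58 and 0.91.

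Of 6 other lysosomal proteases, 3 rose after each lesion and none fell. That was 50% after each, beside 13.1% (SCL) and 15.2% (ECL) of all genes. Lgmn, the asparagine endopeptidase that processes several cathepsins, went from 303 ± 43.6 CPM to 569 ± 120 after SCL and 541 ± 76.7 after ECL, and Tpp1, a tripeptidyl peptidase, rose by 0.69 and 0.81 on the log2 scale. The enzymes for sugars, sulfates and lipids were mixed, with 11 of 30 higher and 3 lower after SCL, and 8 of 28 higher and 5 lower after ECL. That was 36.7% higher and 10% lower after SCL, and 28.6% and 17.9% after ECL. Over all genes tested, 11.8% fell after SCL and 12.5% after ECL. Asah1, acid ceramidase, rose by 1.10 after SCL, and Ids, a sulfatase, fell by 0.77 and 0.90. Of 4 activators and carriers, Psap, the precursor of the saposins, fell after ECL (-0.84, adjusted p = 0.005155) and none was called after SCL.

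Of the lysosomal membrane proteins 6 of 24 rose after SCL and 6 of 21 after ECL, and none fell. That was 25% and 28.6% higher, beside 13.1% and 15.2% of all genes. Cd68, a membrane protein of phagocytes, rose by 1.48 and 1.09, Cd63, a tetraspanin, by 0.80 after SCL, and Lamp1 by 0.57 and 0.45, while Lamp2 had 0.31 and 0.26 and was not called. Of 19 sorting genes, 4 rose and 1 fell after SCL, and 2 rose and 1 fell after ECL, which is 21.1% and 10.5% higher beside 13.1% and 15.2% of all genes. The 1 that fell was Igf2r, the large mannose 6-phosphate receptor that carries cathepsin precursors, from 32.2 ± 7.21 CPM in controls to 15.6 ± 2.71 after SCL and 15.2 ± 2.38 after ECL (adjusted p = 0.0037 and 0.001742). Of 14 genes of the TFEB family and the Ragulator, 3 rose after SCL, Lamtor3 among them, and after ECL 2 rose, Lamtor1 among them by 0.78, and Lamtor2 fell by 0.56, so 21.4% and 14.3% of this list were higher, near the same shares of all genes. Between ECL and SCL no gene of any of these lists was called in edgeR.

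**Figure D5:**
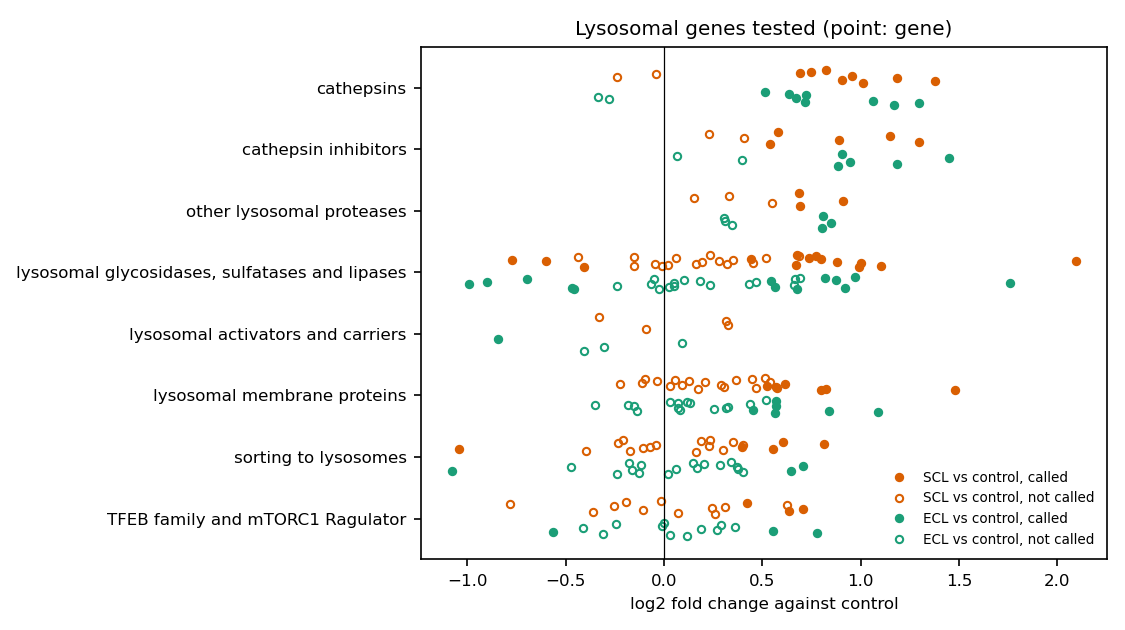
Log2 fold change against control of each tested gene of the cathepsins and of 7 other lysosomal gene lists, with SCL and ECL in separate rows; filled points were called and open points were not. The 8 called cathepsins and the called inhibitors lie right of 0, and the enzymes for sugars, sulfates and lipids lie on both sides.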

How the data were processed

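Libraries were made with a low-input poly(A) RNA kit with PCR amplification and sequenced as paired reads. Per the labels and the study's methods, the authors trimmed reads with cutadapt 3.5, aligned them to the mouse genome (mm10, GRCm38) with STAR 2.7.8a and counted them per gene with featureCounts 2.0.1, without strand. The deposited values are raw counts per gene symbol, 1 library per file. Between 63.0% and 74.3% of the counts from 1 to 20 were even, so mates may have been counted separately.

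Genes whose normalized counts averaged 150 or more over the libraries compared were tested with edgeR 4.0.16 (quasi-likelihood test, TMM factors, group as the only term, R 4.3.3), two-sided, with Benjamini-Hochberg adjustment over all genes tested and a threshold of 0.05. Self-tests on simulated counts were run first. SE is the log2 fold change over the root of F. CPM uses TMM factors over all 13 libraries, and a pseudocount of 0.5 CPM was added before logs of ratios. TPM uses the union of exons of GENCODE M21 on GRCm38, which gave lengths for 53292 symbols and 98.7% of counts, while the authors used another release of the same build. Coordinates are from M21 on GRCm38. Alternatives were DESeq2 1.42.0, other scalings and filters, a sex term, an offset for length and GC content, halved counts, the replicate number as a block and leaving out each library. Pairs of libraries of a group differed by 30.8 or more in chi-square per gene, so none was a copy.

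The members and gene lists were chosen with earlier results of these data known. All 10 members are named. Of each other list, the called genes with the smallest adjusted p-values and a few set by name are named. Numbers within the column headings of the files disagree with the replicate numbers of the labels, which are used here. Sex is taken from the headings, which give 3 female and 2 male cultures for controls, 3 and 1 for SCL, and 1 and 3 for ECL.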

Additional observations from a re-analysis of the deposited data

Results flagged for a closer look

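Of 57 groups of values examined for a library far from the rest, 3 had one, and chance alone flags about 1 in 20. Ctsb in ECL replicate 3 was 1177 CPM, while the other ECL libraries were between 1665 and 1725 CPM, and it was still above every control. Ctsc in control replicate 5 was 27.0 CPM, while the other controls were between 32.0 and 33.0 CPM. Cstb in SCL replicate 3 was 304 CPM, while the other SCL libraries were between 175 and 187 CPM.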

How the results depend on the processing

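Between 7 and 8 cathepsins were higher after SCL, and between 6 and 8 after ECL, under every alternative run, and none differed between ECL and SCL. Of all genes tested, 13.1% (SCL) and 15.2% (ECL) were higher in the chosen fit. That share was 8.2% after SCL without SCL replicate 3, and 6.59% (SCL) and 7.23% (ECL) with no filter. Shares under the other alternatives are not given here, so those counts say only which calls held. The 6 after ECL came from the length and GC offset and from leaving out ECL replicate 2 or 4. With the replicate number as a block the counts were 7 and 7, with Ctsd after SCL and Ctsz after ECL lost. Same-numbered libraries did not all deviate together (r from -0.11 to 0.24 for SCL from -0.17 to 0.43 for ECL, and from -0.14 to 0.54 between ECL and SCL, with 0.54 for number 1), so the numbers were not taken as pairs. TMM factors over all symbols moved the median log2 fold change of all genes to 0.21 (SCL) and 0.18 (ECL), and the share of calls that were higher went from 52.8% to 80.8% (SCL) and from 54.8% to 77.8% (ECL). All 8 calls kept their direction there, Ctsl after SCL went to 0.16, and the genes of the lysosomal lists called lower numbered 2 in place of 4 (SCL) and 4 in place of 8 (ECL).

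Ctsz after ECL turned to -0.014 with the length and GC offset. Against 6 complement and Fc markers, the ratio after ECL turned to -0.571 for Ctsa and -0.472 for Ctsb, and 5 cathepsins after SCL and 9 after ECL changed in ratio. Adjusted over the 10 ratios, as planned, 2 changed after each lesion, and over all genes 3 and 4 did. With any 1 library left out the planned count was 0, and Ctsf and Ctsl kept their direction. Their exact permutation p was then 0.02857 without a control library and 0.01786 without a lesioned library. These are the smallest values the test allows with so few libraries, so the count of 0 does not tell whether the ratios hold. With the longest transcript in place of the union of exons, the control TPM was 20.03 for Ctsc, 47.3 for Ctsf, 47.6 for Ctsh, 298 for Ctsl, 769.8 for Ctss and 166 for Ctsz. Over all genes, calls fell from 2848 to 1679 without SCL replicate 3 and rose to 5390 (SCL) and 8034 (ECL, from 3114) with no filter on low counts, which tested more genes. Between ECL and SCL, 0 genes were called in the chosen fit, 62 in DESeq2, 217 with no filter, 54 without SCL replicate 3, 2 without ECL replicate 4, and 1 each with a sex term and with all libraries in 1 fit. The causes were not tested.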

Other observations

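Cathepsin genes outside the 10 were scarce. All 13 were counted and 0 reached the mean needed for a test. Ctsk, the cathepsin of osteoclasts, was at 0.403 to 3.33 CPM in controls, 2.60 to 3.60 CPM after SCL and 1.29 to 3.21 CPM after ECL. Ctse, an aspartic protease, was between 0.261 and 2.78 CPM in all libraries. Ctsq, of the placental cathepsin cluster of rodents, had 15 to 65 reads in the controls, 4 to 19 after SCL and 1 to 9 after ECL, although the lesioned libraries were on the whole deeper. Ctsj, Ctsm, Ctsr, Ctsll3, Cts3, Cts6, Cts7 and Cts8 also had fewer total reads after both lesions, with 71, 5 and 6 for Ctsm in control, SCL and ECL. Of the scarce inhibitors, Stfa1 had 20 and Cst11 8 reads in controls and 0 after either lesion. Ctsk went the other way, with 156, 424 and 256. So few reads were not tested.

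As a description over 13 libraries with group means removed, among 11648 genes, the genes most like a member were Glipr2 and Mrps5 for Ctsa (r = 0.95 and 0.94), Trim32 and Cystm1 for Ctsb (0.94 and 0.94), Sumo2 and Npl for Ctsc (0.95 and 0.92), Gm13436 and Atp5d for Ctsd (0.97 and 0.97), and Arl6 and Selenop for Ctss (0.97 and 0.97). They were Usp4 and Dlst for Ctsf (0.96 and 0.95), C530044C16Rik and Map2k4 for Ctsh (0.90 and 0.90), Dpy19l4 and H3f3a for Ctsl (0.91 and 0.89), Sgce and Mtx2 for Ctso (0.95 and 0.93), and Gm47483 and Aaas for Ctsz (0.92 and 0.89). The points share libraries, depth and base composition. With the mean of the microglia markers, r was 0.78 for Ctsb, 0.72 for Ctsc, 0.53 for Ctsa and -0.45 for Ctsf, and for the other 6 it was between 0.23 and 0.35. With the mean of the astrocyte markers, it ran from -0.77 for Ctsd to 0.61 for Ctso, and with that of the pyramidal cell markers from -0.69 for Ctss to 0.63 for Ctsd.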
